A study of Homo sapiens with 18 samples.

Results

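The aminoacyl-tRNA synthetase genes were followed in LNCaP cells, an androgen-responsive human prostate adenocarcinoma line. They were taken by symbol from the deposited table of raw counts. The symbols were a letter followed by ARS with no number or with 1, 2 or 3, together with EPRS1, FARSA and FARSB. This found 38 of 60649 genes, of which 37 were among the 15390 genes with enough counts to be tested. By the same rule 21 were cytosolic enzymes, all of them tested, and 17 were mitochondrial enzymes (suffix 2), of which 16 were tested. The remaining one, VARS2, the mitochondrial valyl enzyme, had 0 counts in all 18 libraries, and its exons share 1858 bases (22.0% of its exon length) with GTF2H4 on the same strand. It was therefore left out of every count below.

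The study asked how loss of UPF1 or RCOR1 changes transcription with and without androgen. UPF1 is the RNA helicase of nonsense-mediated decay, and RCOR1 (CoREST) is the scaffold of a histone demethylase and deacetylase complex. Cells were transfected with a SmartPool, a mixture of several siRNAs, against UPF1 or RCOR1, or with a non-targeting control siRNA, and all were then kept in androgen-deprived medium. They received 5 nM R1881, a synthetic androgen, or ethanol as vehicle from 48 h after transfection, and were harvested 48 h later. The 6 groups (control, UPF1 or RCOR1 siRNA, each in vehicle or R1881) held 3 libraries each, described as biological triplicates. Each gene was targeted with 1 siRNA pool in 1 cell line, so errors cover the spread between these libraries and not between siRNAs.

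Totals lay between 10299607 and 17338235 counts per library. All 8 luminal prostate markers were detected, with summed levels of 4850 to 13700 CPM (a gene's counts relative to its library's TMM-scaled total). Markers of other cell types were low: leukocyte markers summed to at most 0.288 CPM, and CD3E, TP63 and CDH5 were at 0 in all libraries. The sum of 3 basal epithelial markers, nearly all of it KRT14, went from 0.642 to 0.832 CPM in control vehicle to 5.27 to 6.3 in UPF1 R1881. KRT14, a basal keratin, was called higher with R1881 with control (1.33), UPF1 (2.78) and RCOR1 siRNA (1.58), while KRT5 had 1 count in 1 library and 0 in the rest. The endothelial sum of 3 genes ranged from 3.51 to 4.90 CPM in control R1881 and from 25.3 to 26.6 in UPF1 vehicle, and the fibroblast sum of 4 genes from 3.88 to 23.4. The fibroblast collagen COL3A1 was lower with R1881 in all 3 arms (-2.66, -2.71 and -2.00), and the endothelial VWF was higher with UPF1 siRNA in vehicle (1.15). The part of these low signals in the results was not tested. UPF1 was at 134 ± 18 CPM (SD, n = 3) with control siRNA in vehicle and at 22.8 ± 2.8 with its own siRNA, and RCOR1 was at 99.6 ± 8.8 and 12.8 ± 3.4 (log2 fold changes of -2.56 and -2.95, edgeR adjusted p = 1.1e-09 and 1.9e-08). In R1881 the log2 fold changes were -2.51 and -2.67. In R1881, RCOR1 siRNA lowered UPF1 as well (-0.36 ± 0.11, adjusted p = 0.04).

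Aminoacyl-tRNA synthetases join each amino acid to its transfer RNA, the step at which the genetic code is read into amino acids. Most amino acids have a cytosolic enzyme and a separate mitochondrial enzyme, both encoded in the nucleus, while KARS1 and GARS1 make both forms from the same gene and QARS1 has no mitochondrial counterpart. Several cytosolic enzymes sit in a multisynthetase complex held by AIMP scaffold proteins. Uncharged tRNA activates the kinase GCN2, whose signal raises translation of the transcription factor ATF4. Many cytosolic synthetase genes are described as ATF4 targets. ATF4 binds, with C/EBP partners, a composite element whose core can be written TGATGNAA.

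The promoter windows of the synthetases were searched for TGATGNAA on both strands. No other motif was searched, so no overlap between motifs arises. The windows ran from 250 bases before to 50 bases after each RefSeq gene start (GRCh38.p14). The table held 30 of the 38 genes. TARS3, VARS2, VARS1, YARS1, LARS1 and AARS2 were among those not in it. The motif was found in 8 of 30 synthetases (26.7%), beside 1217 of 27305 genes in the table (4.46%). It was in 7 of 16 cytosolic genes (43.8%) and in 1 of 14 mitochondrial genes (7.14%). Of 12 cytosolic synthetases widely described as ATF4 targets, 10 were in the table and 7 of these (70.0%) held the motif, against 0 of 6 other cytosolic genes. A gene was counted if any of its windows held a match. The 10 genes had 15 windows and the 6 others had 6, so the 2 sets were not searched equally. The 8 stretches of 30 bases around the match are shown, 1 for each gene in which the motif was found. Each is written 5′ to 3′ in the direction of the gene, with the match in capitals, either as the motif or as its reverse complement.
AARS1 at chr16:70289675-70289704 (minus strand), first base of the match 187 bases before the start: ttttctcgcagTTGCATCAgccaagttaga
CARS1 at chr11:3057407-3057436 (minus strand), 2 bases before: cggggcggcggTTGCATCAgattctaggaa
GARS1 at chr7:30594834-30594863 (plus strand), 33 bases before: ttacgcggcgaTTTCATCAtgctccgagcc
IARS1 at chr9:92293692-92293721 (minus strand), 13 bases before: ttttcagcgcgTTGCATCAcctccgtgcgc
MARS1 at chr12:57488053-57488082 (plus strand), 4 bases before: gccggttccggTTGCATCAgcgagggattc
NARS1 at chr18:57621804-57621833 (minus strand), 14 bases after: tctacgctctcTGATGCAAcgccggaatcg
TARS1 at chr5:33440956-33440985 (plus strand), 2 bases after: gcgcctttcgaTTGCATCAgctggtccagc
YARS2 at chr12:32756076-32756105 (minus strand), 197 bases before: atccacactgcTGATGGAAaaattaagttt
AARS1, CARS1, IARS1, MARS1, NARS1 and TARS1 read TGATGCAA, GARS1 reads TGATGAAA and YARS2 reads TGATGGAA. A match describes these letters only, and is not evidence of binding.

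Cytosolic synthetase genes were expressed above mitochondrial ones. With control siRNA in vehicle, the median level per kilobase of exon was 34.5 CPM per kb over 21 cytosolic genes and 8.47 over 16 mitochondrial genes. The cytosolic range ran from 4.63 ± 0.41 (CARS1) to 87.0 ± 6.2 (AARS1, the alanyl enzyme; SD, n = 3). EPRS1 (67.3 ± 19), NARS1 (66.6 ± 7.6) and GARS1 (61.5 ± 2.9) followed AARS1, and their spreads overlapped one another. The mitochondrial range ran from 0.569 ± 0.023 (SARS2) to 46.0 ± 3.7 (IARS2, the mitochondrial isoleucyl enzyme). IARS2 stood apart from the next mitochondrial genes, EARS2 at 13.7 ± 0.89 and HARS2 at 13.2 ± 0.45. TARS3, a second cytosolic threonyl enzyme, was at 7.59 ± 0.96 CPM per kb, below TARS1 at 39.7 ± 5.2. SARS2 shares 1492 bases (46.2% of its exon length) with an overlapping gene on the same strand, so its low count is uncertain. HARS1 and HARS2 share 437 exon bases on opposite strands, and MARS1 shares 355 with the stress gene DDIT3. Whether counting used strand is not given in the sources used here, so reads of such pairs may not be separable. Synthetase pseudogenes took up almost nothing: 14 were in the table, with 0 to 2 counts each over all libraries.

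The summed level of the cytosolic genes was higher in R1881 than in vehicle with each siRNA; the sums themselves were not tested. With control siRNA the sum was 3845, 3728 and 3817 CPM in vehicle and 4795, 4989 and 5111 in R1881. In cells with UPF1 siRNA it was 3996, 3900 and 4170 without androgen and 4736, 4750 and 4945 with it. RCOR1 siRNA cells had 3048, 3202 and 3324 CPM without androgen and 4122, 4235 and 4366 with it. In none of the 3 arms did vehicle and R1881 overlap, and RCOR1 vehicle was the lowest group, below control vehicle in every library. The mitochondrial sum was 700.4 ± 8.5 CPM in control vehicle and 764.3 ± 20 in control R1881, 685 ± 31 and 860.1 ± 7.9 in UPF1 siRNA cells, and 622 ± 11 and 707.5 ± 15 in RCOR1 siRNA cells (SD, n = 3). The mitochondrial genes made up 15.6% ± 0.35 of the synthetase sum in control vehicle and 13.3% ± 0.21 in control R1881. That share was 14.6% ± 0.25 and 15.2% ± 0.4 with UPF1 siRNA, and 16.3% ± 0.47 and 14.3% ± 0.1 with RCOR1 siRNA. It was lower in R1881 than in vehicle in the control and RCOR1 arms and slightly higher in the UPF1 arm, a difference between arms that was not tested. In the UPF1 arm the libraries overlapped. Replicates 1 to 3 were at 14.8%, 14.3% and 14.6% in vehicle and at 15.4%, 15.4% and 14.7% in R1881. CPM give a gene's part of the RNA sequenced, so that fewer cells of a state and less RNA per cell cannot be told apart.

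**Figure D1:**
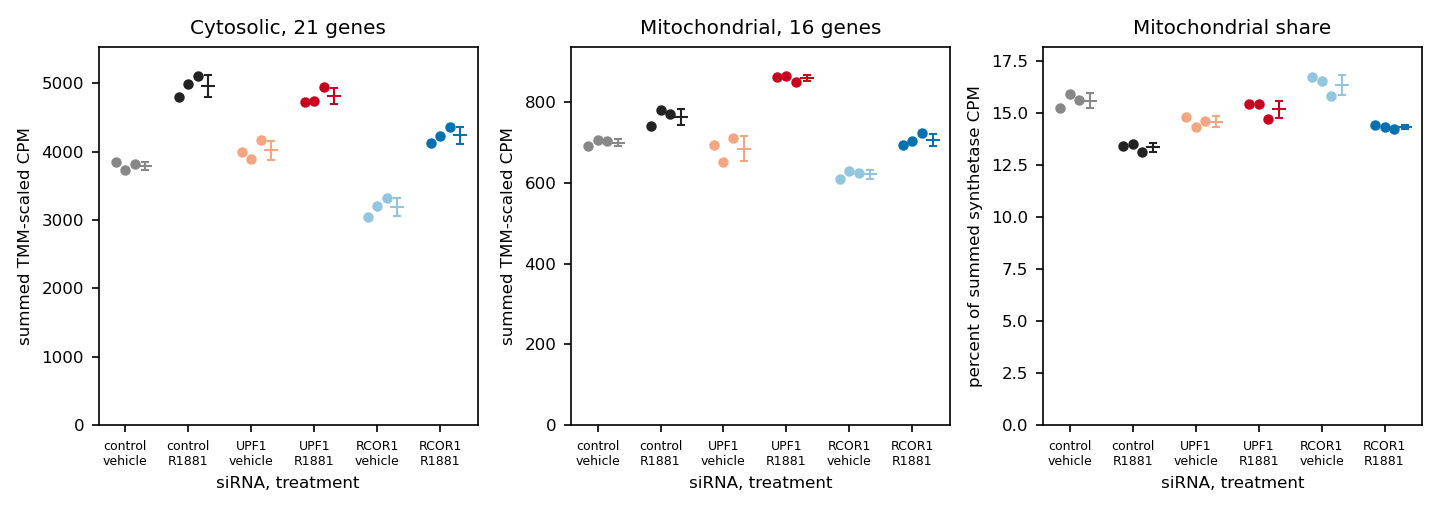
Summed TMM-scaled CPM of 21 cytosolic and 16 mitochondrial synthetase genes and the mitochondrial percent of their sum, in each of 18 libraries (points) with mean ± SD over 3 (bars) for 6 groups. The cytosolic sum lies higher in R1881 than in vehicle for each siRNA, and the mitochondrial sum is highest in UPF1 R1881 (860.1 ± 7.9).

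In control cells, R1881 raised 14 of 21 cytosolic synthetase genes and lowered 1, and raised 4 of 16 mitochondrial genes and lowered 1. Over all genes tested, 20.1% were called higher and 17.6% lower (37.7% either way) at an edgeR adjusted p below 0.05. The median log2 fold change was 0.38 over the cytosolic genes, 0.05 over the mitochondrial genes and 0.02 over all genes. GARS1, the glycyl enzyme, had the smallest adjusted p of the family. It was at 242, 261 and 264 CPM in vehicle and at 401, 418 and 416 in R1881. All 3 R1881 libraries lay well above all 3 vehicle libraries (1.61-fold, log2 fold change 0.69 ± 0.06 SE, adjusted p = 1.5e-07).

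The largest rise was that of TARS1, the threonyl enzyme, from 249, 193 and 239 CPM to 346, 474 and 480 (1.91-fold, 0.93 ± 0.14, adjusted p = 7.6e-05). R1881 replicate 1 was lower than the other two, but above every vehicle library. TARS3 went the other way, from 39.7, 31.1 and 33.6 CPM to 14.3, 18 and 18.5 (2.06-fold lower, -1.04 ± 0.13, adjusted p = 6.8e-06). The 2 genes for cytosolic threonyl-tRNA synthesis thus moved in opposite directions, with TARS1 far the more abundant. YARS1, the tyrosyl enzyme, rose from 151, 187 and 160 CPM to 326, 268 and 271 (1.74-fold, 0.80 ± 0.093, adjusted p = 3.9e-06). MARS1, the methionyl enzyme, rose 1.55-fold (adjusted p = 3.7e-05) and CARS1, the cysteinyl enzyme, 1.54-fold (adjusted p = 0.00011).

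Further cytosolic genes called higher with control siRNA had log2 fold changes of 0.29 to 0.43: WARS1, NARS1, AARS1, SARS1, FARSB, RARS1, IARS1 and HARS1. The 6 that were not called were FARSA (0.20), EPRS1 (0.23), KARS1 (0.08), VARS1 (0.07), QARS1 (0.01) and LARS1 (-0.02). Phenylalanyl-tRNA synthetase is built from FARSA and FARSB, and its FARSB subunit was called (0.38 ± 0.079, adjusted p = 0.0011) while FARSA was not. Among mitochondrial genes YARS2, also a tyrosyl enzyme and the mitochondrial gene with the motif, was at 19.1, 22.3 and 25.3 CPM in vehicle and at 33.8, 34.5 and 34.0 in R1881. The groups were well separated, and the R1881 libraries nearly equal (1.54-fold, 0.62 ± 0.1, adjusted p = 0.00017). RARS2 (arginyl, 1.44-fold, adjusted p = 0.00071), MARS2 (methionyl, 1.30-fold, adjusted p = 0.015) and WARS2 (tryptophanyl, 0.26 ± 0.087, adjusted p = 0.027) were also higher.

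These counts depended on scaling. When counts were divided by library totals alone the median of all genes moved to -0.22, with 26.5% of all calls being higher against 53.3% in the main analysis. Of the synthetases, 7 were then called higher and 4 lower, and the class medians were 0.14 (cytosolic) and -0.20 (mitochondrial). Relative to all genes the cytosolic median stayed above and the mitochondrial median near the middle. With only the 2 groups compared in the model, 10 were higher and 1 lower, and with no filter on low counts 13 were higher and 1 lower. Without control vehicle replicate 3 or control R1881 replicate 2, 1 synthetase was called lower, and the number of higher calls lay between 13 and 18 when any library was left out. TARS1, YARS1, GARS1, CARS1, MARS1, TARS3, YARS2 and RARS2 kept their call in every alternative run. WARS2 kept its call in only 5 of 12 runs, and MARS2, NARS1 and HARS1 in 7 each.

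**Figure D2:**
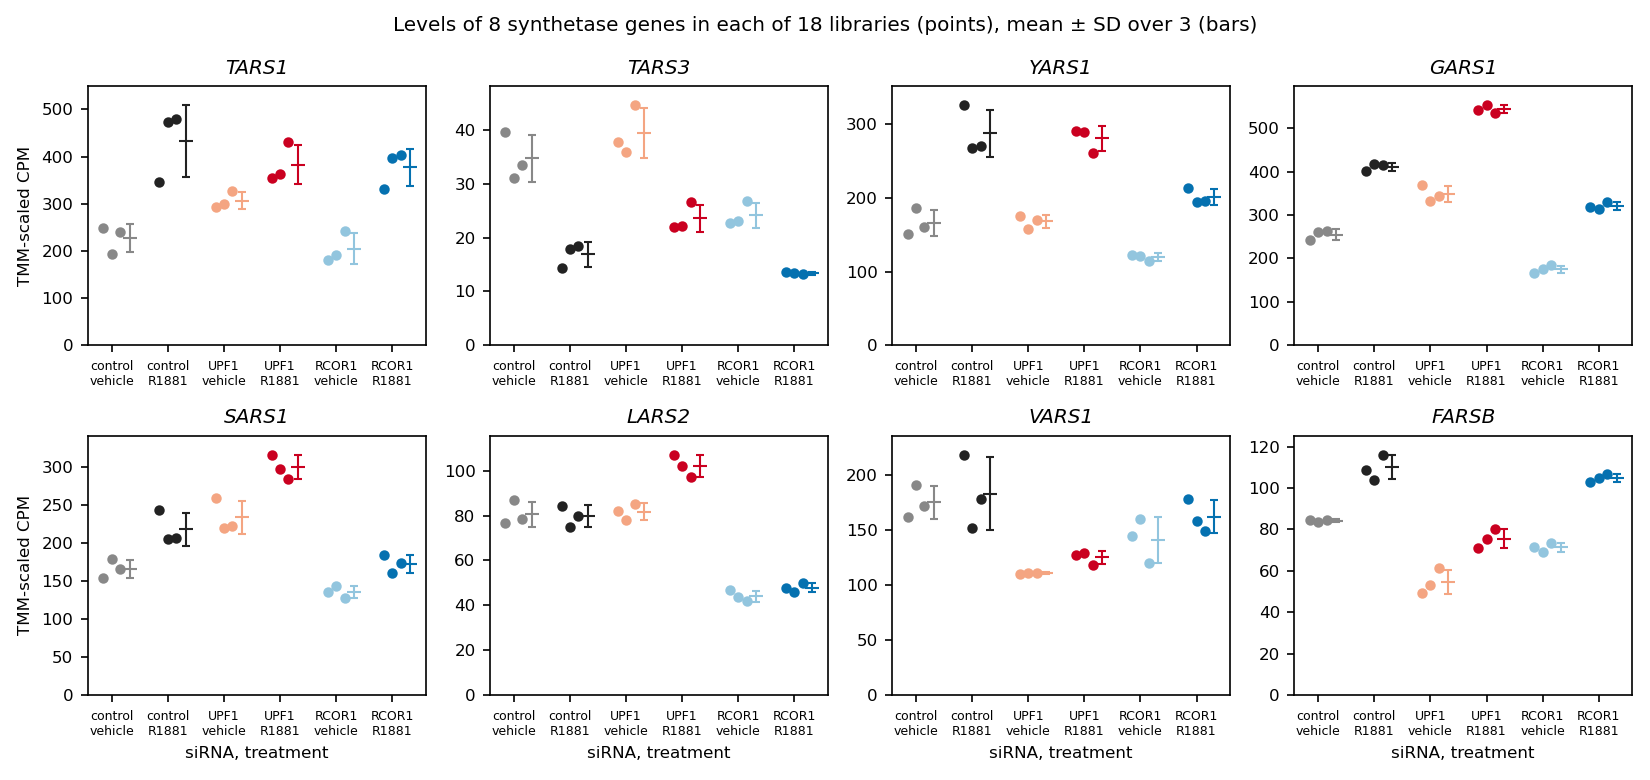
TMM-scaled CPM of 8 synthetase genes (TARS1, TARS3, YARS1, GARS1, SARS1, LARS2, VARS1 and FARSB) in each of 18 libraries (points) with mean ± SD over 3 (bars), by siRNA and treatment. GARS1 rises with R1881 and is highest in UPF1 R1881 (544 ± 8.4), TARS3 falls with R1881, and LARS2 is lowest in the 6 RCOR1 libraries (41.8 to 49.8).

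With UPF1 siRNA, R1881 raised 11 cytosolic genes and lowered 1, and raised 8 mitochondrial genes and lowered 0. The background was 21.6% higher and 20.0% lower over all genes (41.6% either way), and the class medians were 0.33 and 0.27. GARS1 was at 368, 333 and 344 CPM in vehicle and 543, 553 and 536 in R1881, again without overlap (1.56-fold, 0.64 ± 0.06, adjusted p = 3.3e-07). YARS1 (1.67-fold, adjusted p = 9.4e-06), CARS1 (1.57-fold, adjusted p = 8e-05), MARS1 (1.54-fold, adjusted p = 4.7e-05) and WARS1 (1.5-fold, adjusted p = 6.8e-06) rose, and TARS3 fell (1.68-fold lower, adjusted p = 0.00018). AARS1, SARS1, FARSB, IARS1, HARS1 and FARSA were also called higher, at 0.31 to 0.47. Of the mitochondrial genes, YARS2 (1.68-fold, adjusted p = 3.2e-05), RARS2 (1.55-fold, adjusted p = 0.00013), MARS2 (1.54-fold, adjusted p = 0.00039) and TARS2 (threonyl, 1.42-fold, adjusted p = 0.0046) were higher. AARS2, IARS2, EARS2 and LARS2 were called as well, at 0.32 to 0.42. TARS1 and NARS1, called in the other arms, were at 0.33 (adjusted p = 0.079) and -0.14 (adjusted p = 0.43).

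With RCOR1 siRNA, R1881 raised 13 cytosolic genes and lowered 1, and raised 4 mitochondrial genes and lowered 0. Here the background was 16.3% higher and 14.9% lower (31.2% either way), and the class medians were 0.43 and 0.12. GARS1 went from 167, 175 and 184 CPM to 318, 313 and 330 (1.83-fold, 0.87 ± 0.06, adjusted p = 1.2e-08), the 2 groups lying far apart. TARS1 (1.84-fold, adjusted p = 0.00018), YARS1 (1.68-fold, adjusted p = 1.1e-05) and MARS1 (1.48-fold, adjusted p = 0.00014) rose, and TARS3 fell (1.80-fold lower, adjusted p = 9.2e-05). CARS1, FARSB, IARS1, NARS1, WARS1, RARS1, SARS1 and AARS1 were called higher at 0.35 to 0.55. RARS2 and YARS2 (both 1.56-fold, adjusted p = 0.00016 and 0.00018), MARS2 (1.31-fold, adjusted p = 0.016) and WARS2 (1.30-fold, adjusted p = 0.0036) were the mitochondrial genes called.

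Across the 3 arms, 9 cytosolic genes were called higher every time: YARS1, SARS1, FARSB, GARS1, IARS1, CARS1, MARS1, WARS1 and AARS1. TARS3 was called lower every time, and MARS2, RARS2 and YARS2 were the 3 mitochondrial genes called higher every time. In the control arm MARS2 kept its call in only 7 of 12 alternative runs, IARS1 in 8 and SARS1 in 9. AARS1, WARS1 and FARSB kept theirs in 11 of 12 there. In the RCOR1 arm MARS2 kept its call in only 6 of 12. YARS1, GARS1, CARS1, MARS1, RARS2, YARS2 and TARS3 kept theirs in all 12 in both of these arms. Of all 15390 genes tested, 1710 (11.1%) were called higher and 1323 (8.6%) lower in all 3 arms. With library totals alone the median of all genes moved to -0.10 in the UPF1 arm and -0.17 in the RCOR1 arm, with 37.3% and 29.3% of all calls being higher against 51.9% and 52.3%. The count of synthetases called higher was then 13 and 11 (from 19 and 17), 2 were lower in each arm, and the mitochondrial median of the RCOR1 arm turned to -0.08. Without UPF1 R1881 replicates 1 and 2, 1 library was left in that group. Fewer synthetases, and fewer of all genes, were then called higher in the UPF1 arm. Without replicate 3 of that group, 2 synthetases were lower.

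The difference between the responses was tested directly. No synthetase was called in the interaction of R1881 with UPF1 siRNA or with RCOR1 siRNA by edgeR or by DESeq2. Over all genes edgeR called 1.35% higher and 1.37% lower in the UPF1 interaction (2.72% either way), and 0.227% and 0.539% in the RCOR1 interaction (0.767%). At an unadjusted p below 0.05 there were 6 of 37 synthetases (16.2%) in the UPF1 interaction and 1 (2.7%) in the RCOR1 interaction. Over all genes tested the shares were higher, at 19.6% and 10.2%, so the family did not stand above the background at that level. The 6 were AARS2 (0.55 ± 0.17), TARS2, LARS2 and EARS2 with positive differences and TARS1 (-0.61 ± 0.20) and NARS1 (-0.55 ± 0.19) with negative ones, and the smallest adjusted p was 0.11. The class medians of this difference were 0.16 (mitochondrial) and -0.01 (cytosolic). In the RCOR1 interaction the 1 gene was GARS1 (0.18 ± 0.084, edgeR adjusted p = 0.47). With library totals alone 75.2% and 50.9% of all calls in the 2 interactions were higher, against 49.6% and 29.7%. Without control R1881 replicate 1 the UPF1 interaction called 2 synthetases, and without UPF1 R1881 replicate 3 it called 1.

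Libraries of 1 group differed among themselves in MALAT1, an abundant nuclear RNA, and in some synthetases. MALAT1 was at 3760, 4590 and 21400 CPM in UPF1 R1881, at 14500, 34600 and 33800 in control R1881 and at 13000, 31200 and 30400 in RCOR1 R1881. In vehicle it ranged from 10800 to 29100 CPM with control siRNA, from 20200 to 35100 with UPF1 siRNA and from 12300 to 31500 with RCOR1 siRNA. Replicate 1 was thus the lowest R1881 library with each siRNA, and the 2 lowest of all 18 libraries were in UPF1 R1881. EPRS1, the glutamyl-prolyl enzyme, was at 202, 233 and 426 CPM in UPF1 R1881, at 289, 498 and 506 in control R1881 and at 288, 444 and 439 in RCOR1 R1881. In control vehicle it was at 467, 258 and 376, lowest in the library that was also lowest in MALAT1. TARS1 in R1881 was at 355, 364 and 431 CPM with UPF1 siRNA, 346, 474 and 480 with control siRNA and 332, 396 and 404 with RCOR1 siRNA, again lowest in replicate 1 each time. NARS1 in UPF1 R1881 was at 325, 347 and 410 CPM, and AARS1 ran the other way, at 596, 583 and 530. The GC content of EPRS1 (43.2%), TARS1 (43.6%), LARS1 (41.5%) and RARS1 (41.4%) was low within the family's range of 41.2% to 62.6% (median 49.9%), and AARS1 was at 53.5%. FARSB was as low in GC content (41.6%) but spread less than EPRS1. It was at 84.7, 83.4 and 84.5 CPM in control vehicle, 109, 104 and 116 in control R1881 and 71.2, 75.2 and 80.4 in UPF1 R1881. Whether GC content goes with this spread was not tested.

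Without replicates 1 and 2 of UPF1 R1881, the lone remaining library was assumed to vary like the other groups. The R1881 response in the UPF1 arm was then 0.46 in place of 0.33 for TARS1, 0.02 in place of -0.14 for NARS1, 0.00 in place of -0.54 for EPRS1 and 0.29 in place of 0.13 for RARS1. None of these was called with or without them. The interaction of TARS1 was -0.44 in place of -0.61, and that of NARS1 -0.36 in place of -0.55. YARS1 (0.61, adjusted p = 0.011), GARS1 (0.59, adjusted p = 0.00072), RARS2 (0.72, adjusted p = 0.0016) and YARS2 (0.62, adjusted p = 0.012) stayed called without them. When log2 MALAT1, centred within each group, was added to the model, the UPF1 interaction called 7 synthetases: AARS2 (0.54), TARS2 (0.41), LARS2 (0.34), EARS2 (0.31), NARS1 (-0.55), TARS1 (-0.60) and EPRS1 (-0.84). With the same term, 957 of all 15390 genes were called higher and 2323 lower in this interaction, against 208 and 211 without it. The rise in calls was thus not particular to the synthetases. That term removes spread within groups and leaves a shift of a whole group in place.

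**Figure D3:**
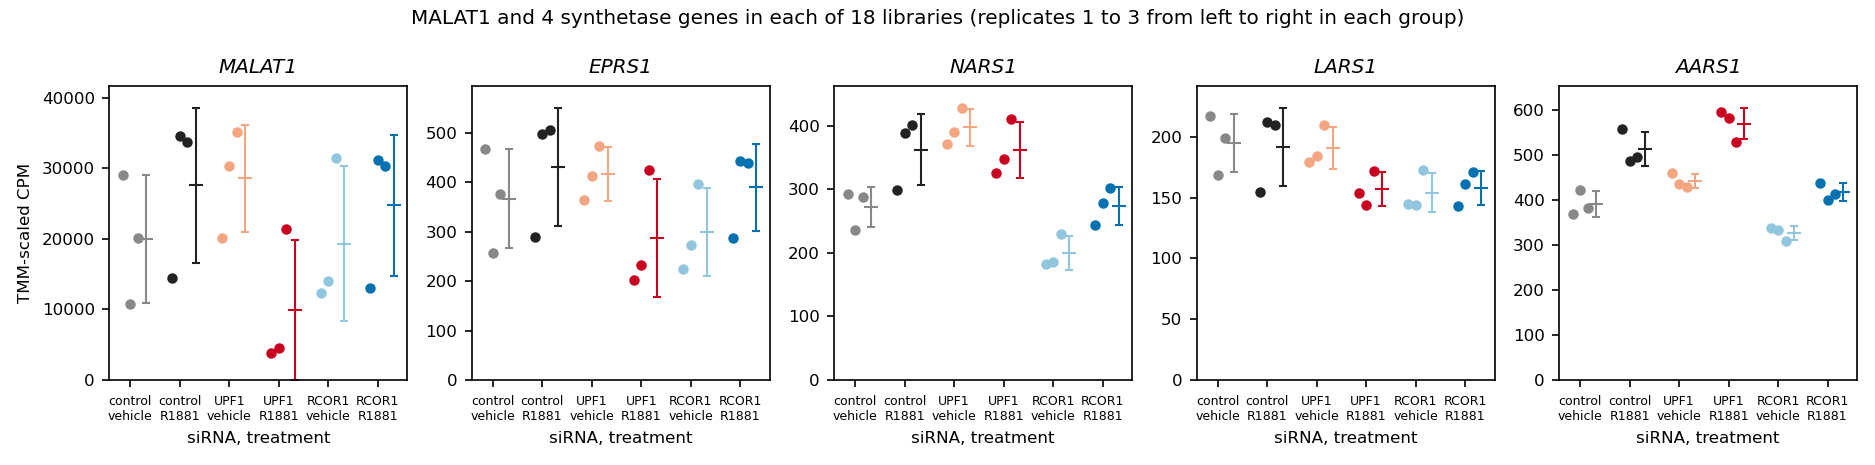
TMM-scaled CPM of MALAT1 and of EPRS1, NARS1, LARS1 and AARS1 in each of 18 libraries (points, replicates 1 to 3 from left to right in each group) with mean ± SD over 3 (bars). MALAT1 is lowest in UPF1 R1881 replicates 1 and 2 (3760 and 4590), where EPRS1 is also low (202 and 233) and AARS1 is not (596 and 583).

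With UPF1 siRNA in vehicle, 6 cytosolic genes were higher and 6 lower than with control siRNA, and 3 mitochondrial genes were higher and 1 lower. These 9 higher (24.3%) and 7 lower (18.9%) of 37 lay near the shares over all genes, 18.5% higher and 16% lower (34.6% either way). The class medians were 0.06 (cytosolic) and -0.09 (mitochondrial), beside 0.03 for all genes. FARSB had the smallest adjusted p, with 84.7, 83.4 and 84.5 CPM in control and 49.5, 53.4 and 61.2 with UPF1 siRNA. The control libraries were nearly equal and all above the UPF1 libraries (1.54-fold lower, -0.62 ± 0.079, adjusted p = 1.8e-05). Its partner subunit FARSA was lower too (1.42-fold, adjusted p = 0.0062). VARS1, the cytosolic valyl enzyme, went from 162, 191 and 172 CPM to 110, 111 and 111 (1.58-fold lower, -0.66 ± 0.12, adjusted p = 0.00066), again with no overlap. IARS1, QARS1 and KARS1, members of the multisynthetase complex, were lower by log2 fold changes of -0.38, -0.37 and -0.20.

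NARS1, the asparaginyl enzyme, was at 292, 236 and 288 CPM in control vehicle and at 371, 390 and 428 with UPF1 siRNA (1.46-fold higher, 0.54 ± 0.13, adjusted p = 0.0047). SARS1, the seryl enzyme, was at 154, 179 and 166 and at 259, 220 and 223 CPM (1.41-fold, 0.49 ± 0.092, adjusted p = 0.00058). In both genes every UPF1 library was above every control library. GARS1 was 1.36-fold higher (adjusted p = 2.7e-05), and TARS1 (0.43), CARS1 (0.29) and WARS1 (0.20) were called higher as well. The mitochondrial genes called were RARS2 (1.46-fold higher, adjusted p = 0.00068), EARS2 (glutamyl, 1.34-fold, adjusted p = 0.00081), WARS2 (1.33-fold, adjusted p = 0.0015) and IARS2 (1.25-fold lower, adjusted p = 0.045). Without UPF1 vehicle replicate 2, 4 synthetases were called lower in place of 7. FARSB, FARSA, VARS1, IARS1, NARS1, SARS1, GARS1, RARS2 and EARS2 kept their call in every alternative run. The calls of WARS1 and CARS1 were kept in only 3 and 5 of 13 alternative runs, and both were lost under DESeq2.

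In R1881, UPF1 siRNA raised 5 cytosolic and 6 mitochondrial genes and lowered 4 cytosolic genes (background 17.6% higher, 15.7% lower and 33.3% either way). The class medians were -0.17 (cytosolic) and 0.07 (mitochondrial). EARS2 had the smallest adjusted p. It was at 87.9, 77.3 and 77.1 CPM with control siRNA and at 139, 135 and 128 with UPF1 siRNA, with the groups far apart (1.66-fold, 0.73 ± 0.082, adjusted p = 8.7e-06). RARS2 (1.57-fold, adjusted p = 0.00019), AARS2 (mitochondrial alanyl, 1.47-fold, adjusted p = 0.0028), LARS2 and WARS2 (both 1.28-fold, adjusted p = 0.0021 and 0.0049) and HARS2 (0.22) were higher. Of the cytosolic genes TARS3 (1.39-fold, adjusted p = 0.0092), SARS1 (1.37-fold, adjusted p = 0.0014), GARS1 (1.32-fold, adjusted p = 0.0001), WARS1 (1.28-fold, adjusted p = 0.0012) and CARS1 (0.32) were higher. VARS1 (1.47-fold, adjusted p = 0.0031), FARSB (1.45-fold, adjusted p = 0.0001), IARS1 (-0.24) and KARS1 (-0.18) were lower. The calls of IARS1 and KARS1 were kept in only 6 and 3 of 14 alternative runs.

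Of these R1881 calls, WARS2, FARSB, RARS2, GARS1, TARS3 and EARS2 remained without UPF1 R1881 replicates 1 and 2. That run left 1 library in the group, and fewer of all genes were called in it. The number of lower calls was 7 without control R1881 replicate 1. It was 2 without control R1881 replicate 2 or 3 or UPF1 R1881 replicate 2, and 2 with library totals alone, which moved the median of all genes to 0.12 and the share of higher calls from 52.8% to 67.1%.

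RCOR1 siRNA lowered synthetase genes and raised none. In vehicle 7 cytosolic and 1 mitochondrial gene were lower and 0 were higher, with a background of 6.21% lower and 5.31% higher (11.5% either way). The class medians were -0.28 (cytosolic) and -0.04 (mitochondrial), beside -0.01 for all genes. At an unadjusted p below 0.05 there were 13 of 21 cytosolic (61.9%) and 4 of 16 mitochondrial genes (25%), beside 24.8% of all genes, so the mitochondrial share was that of all genes. DESeq2 also called 8 lower and 0 higher. LARS2, the mitochondrial leucyl enzyme, had the smallest adjusted p. It was at 76.5, 86.8 and 78.5 CPM with control siRNA and at 46.7, 43.7 and 41.8 with RCOR1 siRNA. The highest RCOR1 library was far below the lowest control library (1.83-fold lower, -0.87 ± 0.078, adjusted p = 4.8e-06). GARS1 was at 242, 261 and 264 CPM and at 167, 175 and 184 (1.46-fold lower, -0.54 ± 0.06, adjusted p = 3.3e-05). TARS3 (1.44-fold, adjusted p = 0.012), YARS1 (1.39-fold, adjusted p = 0.0034), NARS1 (1.36-fold, adjusted p = 0.04), IARS1 (1.26-fold, adjusted p = 0.019) and WARS1 (1.22-fold, adjusted p = 0.014) were lower, as was AARS1 (-0.26).

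In R1881, RCOR1 siRNA lowered 6 cytosolic and 1 mitochondrial gene and raised 0 (background 7.33% lower, 5.06% higher and 12.4% either way). The class medians were -0.25 and -0.02. At an unadjusted p below 0.05 there were 12 cytosolic (57.1%) and 3 mitochondrial genes (18.8%), beside 25.6% of all genes. DESeq2 called 7 lower and 0 higher. LARS2 was at 84.3, 74.8 and 80.0 CPM and at 47.8, 45.7 and 49.8 (1.67-fold lower, -0.74 ± 0.077, adjusted p = 1.6e-05), so that all 6 RCOR1 libraries lay below all other 12. YARS1 went from 326, 268 and 271 CPM to 213, 194 and 196 (1.44-fold lower, -0.52 ± 0.092, adjusted p = 0.0015), with no overlap. GARS1 and CARS1 (both 1.28-fold, adjusted p = 0.00089 and 0.03), SARS1 (1.26-fold, adjusted p = 0.026), AARS1 (1.23-fold, adjusted p = 0.014) and WARS1 (1.21-fold, adjusted p = 0.017) were lower.

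The RCOR1 counts moved with single libraries. In vehicle 5 were lower without control vehicle replicate 1 and 4 without control vehicle replicate 3 or RCOR1 vehicle replicate 1 or 2. In R1881, 3 were lower without RCOR1 R1881 replicate 2 or 3, and 1 was higher without control R1881 replicate 2. With only the 2 groups compared in the model, 3 and 2 were lower. With the MALAT1 term 17 and 15 were lower and 1 was higher in each. Over all 15390 genes that term also raised the lower calls, from 955 to 2068 in vehicle and from 1128 to 2230 in R1881. The higher calls over all genes went from 817 to 1603 and from 779 to 1647. Library totals alone left 6 and 3 lower, moved the median of all genes in R1881 to 0.08, the share of higher calls there from 40.8% to 67.7%, and the mitochondrial median there from -0.02 to 0.07. LARS2 and YARS1 in both media, and GARS1 in vehicle, kept their call in every alternative run. AARS1 in vehicle kept its call in only 3 of 13 runs, and CARS1 and SARS1 in R1881 in 5 of 13 each.

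**Figure D4:**
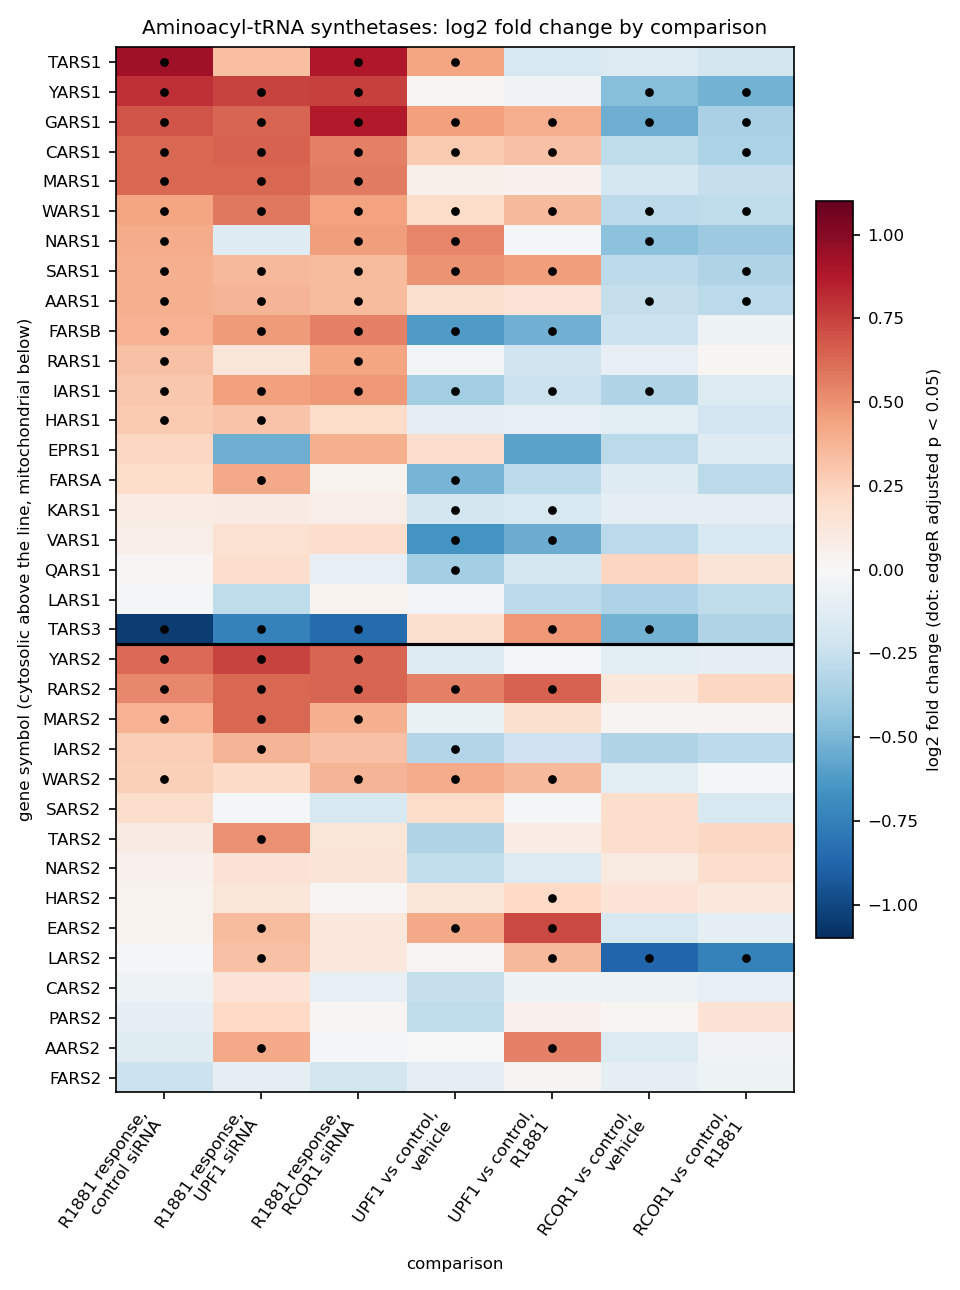
Log2 fold change (colour) of the synthetase genes reported by name (rows, cytosolic above the line and mitochondrial below) in 7 comparisons (columns), with a dot where the edgeR adjusted p was below 0.05. The first 3 columns show the rise with R1881, columns 4 and 5 the mixed response to UPF1 siRNA, and columns 6 and 7 only lower calls with RCOR1 siRNA.

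The 2 targeting siRNAs were also compared with each other. These values share libraries with the comparisons above and are given as their own contrast. With UPF1 siRNA against RCOR1 siRNA, 10 cytosolic genes were higher and 4 lower in vehicle, and 4 mitochondrial genes higher and 2 lower (background 18.2% and 14.9%, 33.1% either way). In R1881 the counts were 9 and 4 cytosolic, and 5 and 1 mitochondrial (background 21.8% and 18.8%, 40.6% either way). GARS1 had the smallest adjusted p in vehicle, at 368, 333 and 344 CPM against 167, 175 and 184 (1.98-fold higher, 0.99 ± 0.06, adjusted p = 1e-08). LARS2 had it in R1881, at 107, 102 and 97.4 CPM against 47.8, 45.7 and 49.8 (2.14-fold higher, 1.1 ± 0.078, adjusted p = 5.5e-08). In both cases the lowest UPF1 library was above the highest RCOR1 library by a wide margin.

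In vehicle, NARS1 (1.99-fold), SARS1 (1.72-fold), TARS3 (1.63-fold), TARS1 (1.49-fold), LARS2 (1.86-fold), EARS2 (1.52-fold) and WARS2 (1.45-fold) were higher with UPF1 siRNA, at edgeR adjusted p from 4.5e-07 (LARS2) to 0.0054 (TARS1). QARS1 (1.53-fold, adjusted p = 0.00044) and TARS2 (1.43-fold, adjusted p = 0.0046) were lower. NARS2, the mitochondrial asparaginyl enzyme, was lower in vehicle (-0.37) and R1881 (-0.34), and the 2 groups overlapped in vehicle. In R1881, TARS3 (1.75-fold), SARS1 (1.73-fold), GARS1 (1.70-fold), CARS1 (1.59-fold), WARS1 (1.55-fold), YARS1 (1.4-fold), EARS2 (1.78-fold), AARS2 (1.5-fold) and RARS2 (1.33-fold) were higher, at adjusted p from 1.6e-07 (GARS1) to 0.0043 (RARS2). Without UPF1 R1881 replicates 1 and 2, 1 library was left in that group. Fewer synthetases, and fewer of all genes, were then called in R1881.

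Genes that were called in none of the 7 comparisons with vehicle or control were EPRS1 and LARS1 among the cytosolic genes, and PARS2, FARS2, NARS2, CARS2 and SARS2 among the mitochondrial genes. For EPRS1 the log2 fold changes reached from -0.59 to 0.39 with an SE of 0.3, and its level ranged from 202 to 506 CPM. LARS1 ranged from 143 to 217 CPM. CARS2 (14.5 to 19.8 CPM), PARS2 (10.2 to 16.5), FARS2 (6.82 to 11) and SARS2 (1.45 to 2.47) were low throughout, and the lowest SARS2 library held 18 counts.

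The cytosolic genes were also counted by whether they are widely described as ATF4 targets. The 12 that are were AARS1, CARS1, EPRS1, GARS1, IARS1, LARS1, MARS1, NARS1, SARS1, TARS1, WARS1 and YARS1. With R1881 in control cells 10 were higher and 0 lower, against 4 higher and 1 lower of the 9 other cytosolic genes. With UPF1 siRNA in vehicle 6 were higher and 1 (IARS1) lower, against 0 higher and 5 lower of the others. With RCOR1 siRNA 6 were lower in vehicle and 6 in R1881, against 1 (TARS3) and 0 of the others, of which 4 and 3 had an unadjusted p below 0.05. The medians were 0.42 and 0.20 for R1881, 0.19 and -0.20 for UPF1 siRNA in vehicle, and -0.29 and -0.12 for RCOR1 siRNA in vehicle. In R1881, UPF1 siRNA left 4 of the 12 higher and 1 lower (median 0.02), against 1 higher and 3 lower of the 9 (median -0.19). Over all genes 20.1% were higher and 17.6% lower with R1881 in control cells, 18.5% and 16% with UPF1 siRNA in vehicle, and 6.21% and 7.33% lower with RCOR1 siRNA in vehicle and R1881. With UPF1 siRNA in R1881, 17.6% of all genes were higher and 15.7% lower. The list was put together with earlier results of these data known, and no test of the list was made.

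Counts by the promoter motif were as follows. All 7 cytosolic genes shown above with TGATGNAA were called higher with R1881 in control cells (median 0.63) and in RCOR1 siRNA cells (median 0.55), and 5 of them in UPF1 siRNA cells (median 0.45). Of the 9 cytosolic genes with a window and no match, 5, 4 and 5 were higher (medians 0.29, 0.35 and 0.31). With UPF1 siRNA in vehicle 4 of the 7 were higher and 1 lower (median 0.29), against 2 higher and 4 lower of the 9 (median -0.11). In R1881 UPF1 siRNA gave 2 higher and 1 lower of the 7 (median 0.05) and 2 higher and 2 lower of the 9 (median -0.19). With RCOR1 siRNA in vehicle 4 of the 7 were lower (median -0.28), against 1 of the 9 (median -0.14), and in R1881 3 of the 7 (median -0.30) against 2 of the 9 (median -0.14). The remaining 5 cytosolic genes, among them TARS3, VARS1, YARS1 and LARS1, had no window in the table. All of these are counts over few genes, and no test was made. The shares over all genes were those given above. For R1881 they were 20.1% higher with control siRNA, 21.6% with UPF1 siRNA and 16.3% with RCOR1 siRNA. For UPF1 siRNA they were 18.5% higher and 16% lower in vehicle, and 17.6% higher and 15.7% lower in R1881. For RCOR1 siRNA they were 6.21% lower in vehicle and 7.33% lower in R1881.

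**Figure D5:**
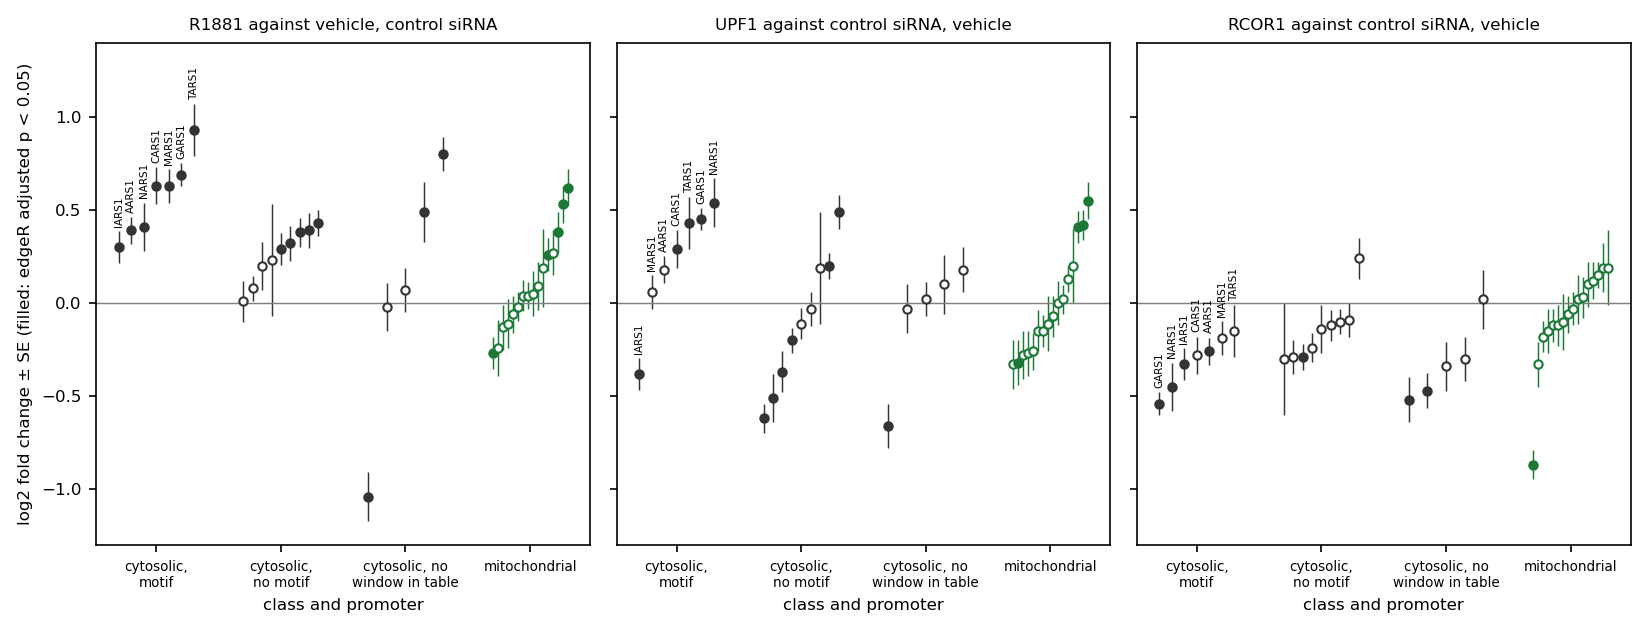
Log2 fold change ± SE of 37 synthetase genes for R1881 with control siRNA and for UPF1 and RCOR1 siRNA in vehicle, grouped as cytosolic with the TGATGNAA motif (named), cytosolic without it, cytosolic with no window in the table, and mitochondrial; filled points passed an edgeR adjusted p of 0.05. All 7 motif genes lie above 0 with R1881 and below 0 with RCOR1 siRNA, and 6 of 7 lie above 0 with UPF1 siRNA, IARS1 being the exception.

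ATF4 and other genes of the integrated stress response are given beside these. ATF4 itself was at 214, 243 and 210 CPM in control vehicle and 354, 313 and 318 in control R1881 (0.56 ± 0.077, adjusted p = 2.2e-05). It was at 421, 383 and 391 CPM in UPF1 vehicle (0.84 ± 0.077 above control, adjusted p = 6.9e-07) and 641, 615 and 567 in UPF1 R1881. With RCOR1 siRNA it was at 180, 198 and 189 CPM in vehicle (-0.23, adjusted p = 0.062) and 274, 250 and 260 in R1881 (-0.33 ± 0.077 against control, adjusted p = 0.0098). Its mean was highest in UPF1 R1881 and lowest in RCOR1 vehicle. Of the 12 synthetases described as its targets, 6 were highest in UPF1 R1881, 4 in control R1881 and 1 each in UPF1 vehicle and control vehicle, and 10 were lowest in RCOR1 vehicle. Outside that list RARS2, EARS2, LARS2, WARS2, AARS2, MARS2 and HARS2 were also highest in UPF1 R1881. HARS1, RARS1, LARS2, EARS2 and WARS2 were also lowest in RCOR1 vehicle. Most others outside the list were not, and the share over all genes was not counted. These are ranks of group means and can be near ties. LARS1 was at 154 ± 16 CPM in RCOR1 vehicle and 157 ± 14 in UPF1 R1881 (SD, n = 3). Of the 15 listed genes, 10 were higher and 2 lower with R1881 in control cells, led by NUPR1 (0.94), TRIB3 (0.77), PPP1R15A (0.68) and SESN2 (-0.64). With UPF1 siRNA in vehicle 8 were higher and 1, EIF2AK4 (the gene of GCN2, -0.33), was lower. DDIT3, at 1.52, shares exon bases with MARS1, whose own value was 0.06. With RCOR1 siRNA in vehicle 2 were higher and 4 lower, among them the serine synthesis genes PSAT1 (-0.78) and PHGDH (-0.62). In R1881, 1 was higher and 6 lower. The shares over all genes were 20.1% higher and 17.6% lower for R1881, 18.5% and 16% for UPF1 siRNA in vehicle, 5.31% and 6.21% for RCOR1 siRNA in vehicle and 5.06% and 7.33% for it in R1881.

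Amino acid transporters supply the substrates of these enzymes. Of 11 listed, 6 were higher and 1 lower with R1881 in control cells, where 20.1% and 17.6% of all genes were. SLC43A1 (2.51 ± 0.13) and the glutamine and neutral amino acid carrier SLC1A5 (1.27 ± 0.12) rose, and SLC7A5, the large neutral amino acid carrier, fell (-0.93 ± 0.2, adjusted p = 0.0017). With RCOR1 siRNA 5 were lower in vehicle and 5 in R1881, beside 6.21% and 7.33% of all genes. SLC1A5 was at 101, 134 and 102 CPM in control vehicle and at 63.0, 59.6 and 51.6 in RCOR1 vehicle, with no overlap (-0.95 ± 0.12, adjusted p = 0.00015). SLC6A9, a glycine carrier, was lower with RCOR1 siRNA (-0.84) and with UPF1 siRNA (-1.04) in vehicle.

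Other genes that handle charged tRNA are given by their counts. The 8 synthetases of the multisynthetase complex, among them EPRS1, LARS1, IARS1, MARS1, QARS1, KARS1 and RARS1, had 4 higher and 0 lower with R1881 in control cells, 0 higher and 3 lower with UPF1 siRNA in vehicle, and 1 lower with RCOR1 siRNA in vehicle. Over all genes 20.1% were higher with R1881, 16% lower with UPF1 siRNA and 6.21% lower with RCOR1 siRNA, and no test of these counts was made. None of the scaffolds AIMP1 (0.36), AIMP2 (0.17) and EEF1E1 (0.35) was called with R1881 in control cells, where 0 of 3 had an unadjusted p below 0.05. AIMP2 was lower with UPF1 siRNA in vehicle (-0.30 ± 0.093, adjusted p = 0.02). The 7 cytosolic elongation factors, which bring charged tRNA to the ribosome or move it, had 0 higher and 5 lower with UPF1 siRNA in vehicle, at -0.74 (EEF1A2), -0.52 (EEF1A1), -0.48 (EEF1B2), -0.47 (EEF2) and -0.36 (EEF1D), where 16% of all genes were lower. With R1881 in control cells 0 were higher and 1, EEF1A2, lower (-0.43), beside 20.1% and 17.6% of all genes.

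On the mitochondrial side, the translation factor GFM1 was at 128, 103 and 129 CPM in control vehicle and at 241, 322 and 323 in control R1881 (1.30 ± 0.13, adjusted p = 8.5e-07), above any synthetase change. Of the 10 listed factors 3 were higher with R1881 in control cells, GFM1 together with MTIF3 (0.55) and MRRF (0.23), where 20.1% of all genes were higher. With UPF1 siRNA in vehicle 4 were higher and 1 lower, where 18.5% and 16% of all genes were. The amidotransferase that turns glutamyl-tRNA into glutaminyl-tRNA in mitochondria has 3 subunits. QRSL1 was higher with R1881 in control cells (0.36 ± 0.095, adjusted p = 0.0073), and GATC was lower with RCOR1 siRNA in vehicle (-0.60 ± 0.074, adjusted p = 8.4e-05) and R1881 (-0.49). Of 9 genes of tRNA end processing, export and proofreading, only PTRH2, a peptidyl-tRNA hydrolase, was called with R1881 in control cells (0.92 ± 0.075, adjusted p = 7.6e-08). Over all genes 37.7% were called there in either direction. PTRH2 was also called higher in the UPF1 (1.02) and RCOR1 (0.89) arms, where 21.6% and 16.3% of all genes were.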

How the data were processed

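Total RNA depleted of ribosomal RNA was sequenced in 18 libraries. The deposited values are raw counts of reads per gene; the tools and build named, per the submitters' processing notes, are bcl2fastq 2.20, STAR 2.7.9a, Subread 1.6.4 (featureCounts) and GRCh38.p7. For the annotation release and the strand setting, the sources used here give nothing. In R 4.3.3, counts of all genes were analysed with edgeR 4.0.16: filterByExpr by group, TMM scaling, 1 mean per group over 18 libraries, quasi-likelihood F tests, and Benjamini-Hochberg adjustment over 15390 genes, called below 0.05. The common dispersion was 0.0239. The SE was derived from each F statistic as |log2 fold change| / √F. The scripts were tested on simulated data. Exon lengths, GC content and overlaps came from GENCODE 29, matched by identifier without version for all 38 genes, and promoter windows from RefSeq. Replicates have no number in the labels and were numbered in accession order, which pairs none of them. No 2 libraries were identical. In each comparison of 2 groups, up to 6 cytosolic and 4 mitochondrial called genes with the largest change were given with fold change and adjusted p, the gene with the smallest adjusted p with its CPM in every library, and up to 4 called genes were named from each companion list. Some genes of the family enter the counts, sums and medians but are not reported here by name. The genes, lists and this rule were chosen with earlier results of these data known. Alternatives were DESeq2 1.42.0, RLE size factors, library totals alone, no filter, only the groups compared, a MALAT1 covariate, leaving out each library, leaving out UPF1 R1881 replicates 1 and 2, and, added after seeing the data, a block for sets of consecutive titles.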

Additional observations from a re-analysis of the deposited data

How the results depend on the processing

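Of 104 pairs of a called synthetase and a comparison, 49 kept their call in every alternative run and 0 changed sign. DESeq2 kept 98, RLE size factors 96, the MALAT1 term 104, no filter 79, only the groups compared 75 and library totals alone 70, and leaving out UPF1 R1881 replicates 1 and 2 kept 17 of the 35 it touched. Leaving out libraries and fitting only the groups compared both use fewer samples; the cause of the other changes was not tested.

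With library totals alone, synthetases called higher and lower were 7 and 4 for R1881 with control siRNA, 2 lower with UPF1 siRNA, 11 and 2 with RCOR1 siRNA, 2 lower for UPF1 siRNA in R1881, and 1 and 3 for RCOR1 siRNA in R1881. With no filter, R1881 with control siRNA had 13 higher and 1 lower, from 18 and 2. With UPF1 siRNA R1881 had 20 and 2, and with RCOR1 siRNA 15 and 1. UPF1 siRNA had 6 higher and 6 lower in vehicle, from 9 and 7, and 8 and 3 in R1881, from 11 and 4. RCOR1 siRNA had 5 lower in vehicle and 3 in R1881, and the UPF1 interaction had 2 calls, EPRS1 (-0.73) and TARS1 (-0.56). With only the groups compared, R1881 had 10 higher and 1 lower with control siRNA and 19 and 2 with UPF1 siRNA. UPF1 siRNA had 7 higher and 6 lower in vehicle and 8 and 2 in R1881. RCOR1 siRNA had 3 lower in vehicle and 2 in R1881. With the MALAT1 term, R1881 with UPF1 siRNA had 3 lower, UPF1 siRNA in R1881 11 lower, RCOR1 siRNA 1 higher and 17 lower in vehicle and 1 higher and 15 lower in R1881, and the UPF1 interaction 7. Over all genes lower calls in these comparisons went from 3084 to 4386, 2418 to 3871, 955 to 2068 and 1128 to 2230. The UPF1 interaction went from 208 higher and 211 lower to 957 and 2323 over all genes. Without UPF1 R1881 replicates 1 and 2, 1 library was left in that group. Fewer synthetases, and fewer of all genes, were then called for R1881 with UPF1 siRNA and for UPF1 siRNA in R1881. The same held for UPF1 against RCOR1 siRNA in R1881.

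When each library was left out in turn, R1881 called 13 to 18 higher and 1 to 2 lower with control siRNA, 16 to 19 and 1 to 2 with UPF1 siRNA, and 15 to 17 and 1 with RCOR1 siRNA. UPF1 siRNA called 7 to 9 higher and 4 to 8 lower in vehicle, and 9 to 10 and 2 to 7 in R1881. RCOR1 siRNA called 0 higher and 4 to 7 lower in vehicle, and 0 to 1 and 3 to 7 in R1881. UPF1 against RCOR1 siRNA called 16 to 20 in vehicle and 15 to 17 in R1881. The UPF1 interaction called 0 to 2 and the RCOR1 interaction 0. The labels give no replicate numbers, but the titles run in 6 sets of 3 consecutive numbers, each holding the 3 siRNAs of 1 treatment, and nothing says that a set shares a culture or day. Fitting these sets as a replicate block was chosen after seeing the data. Deviations of 2 libraries of a set from their group means correlated across genes at -0.43 to 0.48 (above 0.1 in 11 of 18 pairs), and 8 of 18 libraries were closest to their own set, so the sets are not taken as pairs. The sets differed: in the first R1881 set the correlations were 0.42 to 0.48, and all 3 libraries were closest to their own set. In the first vehicle set and the second R1881 set 0 of 3 were. With this block, UPF1 siRNA in R1881 called 9 lower and the UPF1 interaction 2, TARS1 (-0.60) and NARS1 (-0.54), and all 46 siRNA calls were kept. As sets lie within a treatment, the R1881 responses were not fitted with it.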
